A study of Mus musculus with 14 samples.

Results

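The Hox genes of the mouse were followed through RNA sequencing counts of sorted knee synovial cells. Members were all protein-coding genes whose symbol is Hox, a cluster letter from a to d and a paralogue number, which gave 39 of the 47729 genes in the table. They are 11 HoxA, 10 HoxB, 9 HoxC and 9 HoxD genes. The choice used names only and no measured value. The 14 libraries came from C57BL6 mice of 16 weeks and form 3 groups. Libraries 1 to 4 were made from CD200+CD105- cells of non-immunized (NI) mice, which had received only phosphate buffered saline. Libraries 5 to 9 were made from CD200+CD105- cells of mice with antigen-induced arthritis (AIA), and libraries 10 to 14 from CD200-CD105+ cells of such mice. In this model mice are immunized with methylated bovine serum albumin in complete Freund's adjuvant and later receive that albumin into the joint. All 14 samples were sorted as TER119-, CD31-, CD45- and CD51+ cells, that is, without red cell, endothelial and leukocyte surface markers and with integrin alpha V, and each held 200 to 500 live cells. The groups below are called NI CD200+, AIA CD200+ and AIA CD105+. CD105+ cells of NI mice are not analysed here. Nothing in the labels tells whether libraries were made from different animals, so p-values measure only the spread between these samples.

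Hox genes encode homeodomain transcription factors. They lie in 4 clusters in which the order of the genes along the chromosome follows the order of their domains along the body axis, with high paralogue numbers used toward the tail and toward the tip of the limb. HoxA and HoxD genes pattern the limb from shoulder or hip to digits, and several HoxC genes differ in use between the hindlimb and the forelimb. Connective tissue cells of adults are known to keep part of the Hox pattern of the place where they arose, and haematopoietic progenitors use HoxA genes as well. Polycomb proteins keep unused clusters silent, and cofactors of the TALE class, such as Meis and Pbx proteins, bind DNA together with Hox proteins.

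The promoters of 4 members show what the clusters carry at genes that were read and at genes that were not. The windows are the 250 bases before the RefSeq start of the gene (GRCm38.p6), written 5′ to 3′ on the gene's strand. Capitals mark the letters of 4 motifs searched on both strands: the CCAAT box, the GC box GGGCGG, the TATA box letters TATAAA, and TGATNNAT, a form bound by Pbx with Hox proteins. Hoxa10 and Hoxa9 were among the highest members, while Hoxb8 and Hoxd13 had no count in any library. The windows are chr6:52234940-52235189 and chr6:52227371-52227620 (both minus strand), chr11:96281655-96281904 and chr2:74667975-74668224 (both plus strand), in the order printed. None overlaps an annotated exon of its gene.
Hoxa10: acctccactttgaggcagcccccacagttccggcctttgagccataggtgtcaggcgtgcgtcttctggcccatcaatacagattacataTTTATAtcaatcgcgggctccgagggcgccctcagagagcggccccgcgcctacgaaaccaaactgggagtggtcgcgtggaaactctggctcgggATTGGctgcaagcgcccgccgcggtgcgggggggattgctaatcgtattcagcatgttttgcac
Hoxa9: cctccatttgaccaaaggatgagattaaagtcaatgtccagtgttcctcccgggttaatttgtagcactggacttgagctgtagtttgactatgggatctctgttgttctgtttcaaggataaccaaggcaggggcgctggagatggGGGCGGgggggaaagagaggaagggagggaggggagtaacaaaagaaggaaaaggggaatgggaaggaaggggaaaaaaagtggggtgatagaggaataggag
Hoxb8: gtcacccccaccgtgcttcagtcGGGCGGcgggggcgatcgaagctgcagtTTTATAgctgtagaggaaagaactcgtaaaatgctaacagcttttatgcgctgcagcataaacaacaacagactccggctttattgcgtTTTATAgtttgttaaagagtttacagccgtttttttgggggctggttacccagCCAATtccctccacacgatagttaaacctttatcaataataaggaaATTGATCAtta
Hoxd13: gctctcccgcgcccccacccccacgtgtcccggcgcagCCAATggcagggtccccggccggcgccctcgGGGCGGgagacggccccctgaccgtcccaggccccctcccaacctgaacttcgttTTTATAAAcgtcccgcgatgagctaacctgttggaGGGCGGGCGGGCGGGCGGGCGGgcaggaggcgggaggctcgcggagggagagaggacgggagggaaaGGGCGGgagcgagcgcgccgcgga
The Hoxa10 window lies before an inner start and, like the Hoxa9 window, within the annotated span of the gene. It holds 20 CG dinucleotides, with 1 match each of CCAAT and TATAAA. A second Hoxa10 window, not printed, lies before the outer start (chr6:52240855-52241104). That window holds 7 CG dinucleotides and 1 match of GGGCGG, without CCAAT or TATAAA. The Hoxa9 window holds only 3 CG dinucleotides. The windows of the unread Hoxb8 and Hoxd13 hold 12 and 31, each with 2 matches of TATAAA, which overlap in Hoxd13, and 1 of CCAAT. Windows of both kinds of gene thus held such matches. Promoter windows were found for 22 of the 39 members, which have 24 windows. CCAAT was present in 14 of the 24 and in 33.8% of all 32851 windows in the table, GGGCGG in 10 and 32.7%, TATAAA in 4 and 12.4%, and TGATNNAT in 4 and 7.68%. The median number of CG dinucleotides was 12.5 in the members' windows, with a range from 2 to 35, and 6 in all windows.

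Levels are given as CPM, the counts of a gene relative to all counts on mouse genes of its library, scaled by TMM. Total counts per library ranged from 12177437 to 40331071. Counts on mouse genes ranged from 2919666 to 18553803, since added ERCC spike-in RNA took 20.3% to 92.0% of the counts. The share of spike-ins was over 80% in library 2 (NI CD200+) and in libraries 5 and 6 (AIA CD200+), which therefore hold the fewest gene counts. In a single library 3 counts, the limit that a count of 0 allows, equal 0.171 to 0.914 CPM, and this limit covers counting error only. The sort was checked on its own genes. Cd200 lay between 320 and 800 CPM in the 9 CD200+ libraries and was at 0 in 4 of the 5 CD105+ libraries, with 11.5 CPM in library 12. Eng, which encodes CD105, was at 0 in CD105+ library 10, lay between 2.97 and 11.2 CPM in the other CD105+ libraries and reached 12.3 CPM in NI CD200+ library 1. Its edgeR change of 3.64 (log2) in arthritis did not pass the test (adjusted p = 0.170).

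Of the 39 members, 27 had a count in at least 1 library. They were all 11 HoxA genes and 8 of 9 HoxC genes, but only 4 of 10 HoxB genes and 4 of 9 HoxD genes. HoxA members took 12039 counts over all libraries and HoxC members 8900, against 1274 for HoxD and 518 for HoxB. The clusters span 105.29 kb on chromosome 6 (HoxA), 173.94 kb on chromosome 11 (HoxB), 115.75 kb on chromosome 15 (HoxC) and 96.83 kb on chromosome 2 (HoxD). A count was found for 25 members in the NI CD200+ group, for 24 in the AIA CD200+ group and for 15 in the AIA CD105+ group. All 15 of the last also had a count in a CD200+ library, so no member was read in CD105+ cells alone.

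**Figure D1:**
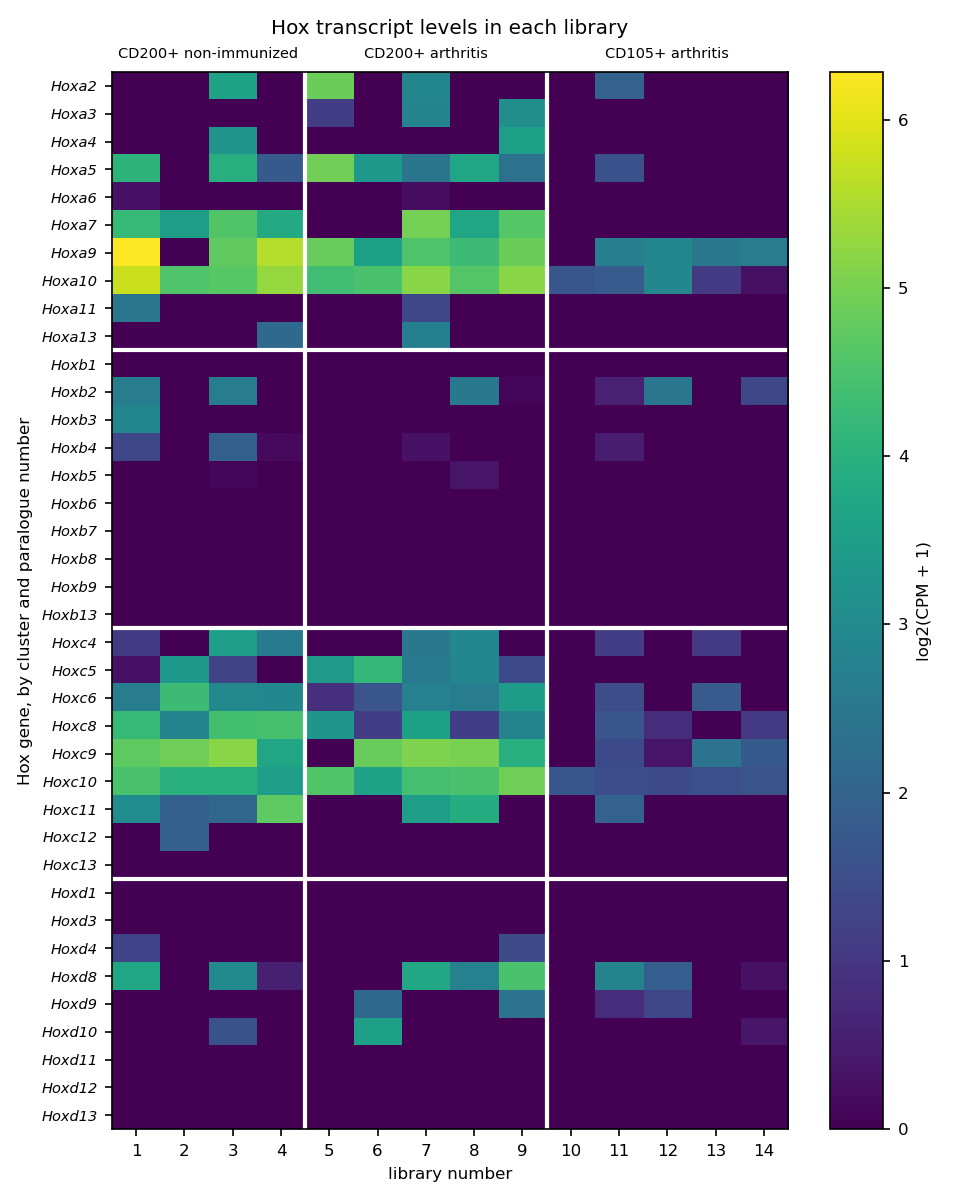
Heat map of log2(CPM + 1) for Hox genes (rows, by cluster and paralogue number) in the 14 libraries (columns, by group). The filled rows lie in the HoxA and HoxC clusters, mostly in the CD200+ columns, and the 12 genes without a count are dark throughout.

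The reads of a member were mostly present in number or absent. Of the 378 values of the 27 members with a count, 215 (56.9%) were 0, and of the 163 above 0 only 20 were below 10 counts. The median of those above 0 was 75 counts or 6.00 CPM, and the highest was 1323 counts, for Hoxa9 in library 1. A 0 in 1 library thus often stood beside a high count in another library of the same group. Hoxa10, Hoxc6, Hoxc8 and Hoxc10 were detected in each of the 9 CD200+ libraries. Hoxa10 and Hoxc10 were also detected in each of the 5 CD105+ libraries, the only members with a count in all 14.

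The summed level of the 39 members was 273, 117, 215 and 191 CPM in NI CD200+ libraries 1 to 4. It was 148, 115, 213, 163 and 197 CPM in AIA CD200+ libraries 5 to 9, and 4.46, 32.2, 24.4, 15.5 and 13.1 CPM in CD105+ libraries 10 to 14. All CD105+ libraries lay below every CD200+ library, while the CD200+ groups overlapped. Mean sums were 199 ± 64.9 CPM (SD, n = 4), 167 ± 39.4 CPM (n = 5) and 17.9 ± 10.7 CPM (n = 5). In bulk samples, fewer cells that use a gene and less of its RNA per cell cannot be told apart. HoxA and HoxC together carried 90.2% to 100% of the sum in NI CD200+ libraries, 86.1% to 100% in AIA CD200+ libraries and 64.3% to 100% in CD105+ libraries. The low end of the last range is library 12, in which Hoxb2 and the HoxD genes took the rest.

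Summed over the clusters, paralogues 9 and 10 took most of the Hox level in CD200+ cells. These took 56.4% ± 7.30 (SD, n = 4) of the Hox sum in NI CD200+ cells and 57.5% ± 10.2 (n = 5) in AIA CD200+ cells. Paralogues 4 to 8 took 33.5% ± 8.85 and 32.7% ± 5.25, and paralogues 11 to 13 took 6.43% ± 5.95 and 3.31% ± 4.53. Of the mean sum of paralogues 11 to 13, Hoxc11 had 9.68 of 12.4 CPM in NI CD200+ cells. In AIA CD200+ cells it had 4.80 of 6.22 CPM. In CD105+ libraries the share of paralogues 9 and 10 ranged from 38.1% to 100%, and the 100% of library 10 rests on 20 counts. Levels of different genes were compared per kilobase of annotated exon. In NI CD200+ cells the order began with Hoxa10 at 10.7 ± 4.48 CPM per kb (SD, n = 4), Hoxc9 at 10.5 ± 3.95, Hoxc10 at 7.93 ± 2.36 and Hoxa9 at 6.70 ± 5.83. Hoxc8, Hoxa7, Hoxc11, Hoxa5 and Hoxc6 followed, from 5.66 down to 3.89 CPM per kb. Each of these exceeded the next in the order by less than its own SD. In AIA CD200+ cells Hoxc10 came first at 11.0 ± 3.39 CPM per kb (n = 5), before Hoxc9 at 8.71 ± 5.70, Hoxa10 at 8.20 ± 2.29 and Hoxa5 at 6.30 ± 5.56, again within their spread. In CD105+ cells the order was Hoxc10 at 1.02 ± 0.103 CPM per kb (n = 5), Hoxa9 at 0.779 ± 0.450, Hoxa10 at 0.769 ± 0.740 and Hoxc9 at 0.715 ± 0.715. The same 4 genes of paralogue groups 9 and 10 thus led in NI CD200+ cells and in CD105+ cells, at different levels. HoxD was highest at Hoxd8 in each group, with 1.79, 2.87 and 0.649 CPM per kb in NI CD200+, AIA CD200+ and CD105+ cells.

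**Figure D2:**
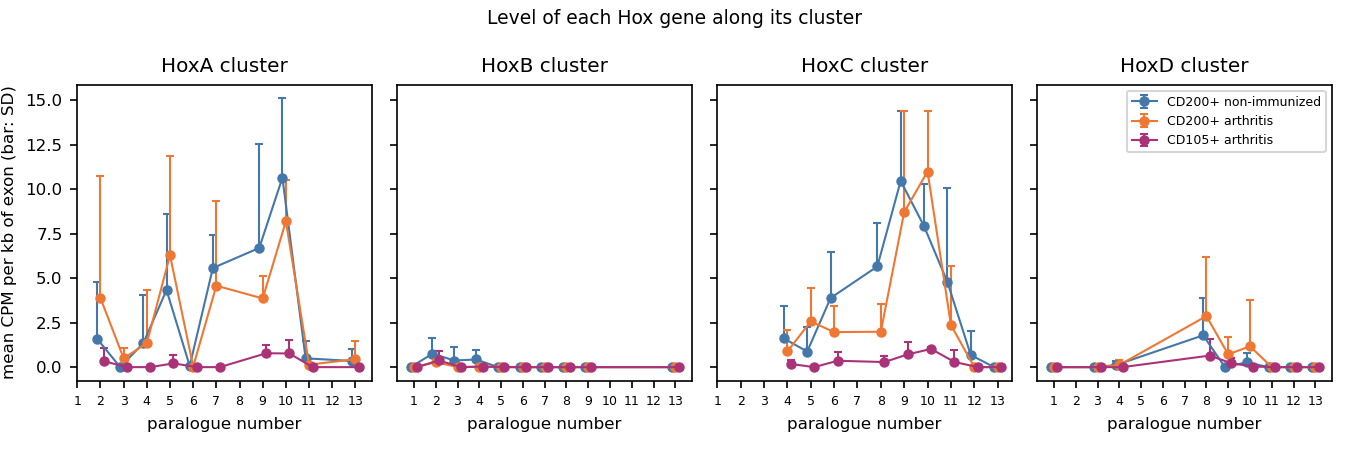
Mean CPM per kb of exon (y axis, bar to 1 SD above) against paralogue number (x axis) in each cluster, for NI CD200+ (n = 4), AIA CD200+ (n = 5) and AIA CD105+ (n = 5) libraries. HoxA is highest at paralogue 10 and HoxC at paralogues 9 and 10 in the CD200+ groups, with Hoxa10 at 10.7 CPM per kb in NI cells, and HoxB stays near 0.

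A filter on low counts (edgeR filterByExpr, minimum count 10) kept 15 members and 15015 genes. The 15 are 5 HoxA, 1 HoxB, 7 HoxC and 2 HoxD genes. Members that entered through the group in which they are high had to differ, so their counts below are descriptions of these 15 and not of the 39. A gene was called when edgeR's quasi-likelihood test gave it an adjusted p (Benjamini-Hochberg, over all 15015 genes) under 0.05. Changes are log2 with an approximate standard error (SE).

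In the HoxA cluster the values ran as follows, in library order. Hoxa2, which patterns the hindbrain and the second pharyngeal arch, was at 0 in 10 of the 14 libraries, with 11.4 CPM in NI library 3, 28.1 and 6.34 CPM in AIA libraries 5 and 7 and 2.94 CPM in CD105+ library 11. Hoxa5, used in the lung and the thoracic skeleton, had 15.8, 0, 14.3 and 2.44 CPM in NI CD200+ cells, 29.5, 9.14, 4.38, 12.0 and 4.10 CPM in AIA CD200+ cells, and 1.98 CPM in library 11 as its only value in CD105+ cells. Hoxa7 had 17.4, 10.5, 22.9 and 13.4 CPM in NI cells, 0, 0, 30.4, 11.9 and 23.5 CPM in AIA CD200+ cells, and no count in any CD105+ library. The 2 zeros of Hoxa7 in CD200+ cells are libraries 5 and 6, both over 80% spike-ins. Hoxa9, which acts in the limb and in blood progenitors, had 76.9, 0, 26.1 and 46.6 CPM in NI cells, 27.5, 11.0, 22.4, 18.8 and 28.1 CPM in AIA CD200+ cells, and 0, 5.40, 6.42, 4.68 and 5.24 CPM in CD105+ cells. Its 0 in NI cells is library 2, also over 80% spike-ins. Hoxa10, a patterning gene of the thigh and the uterus, had 54.1, 22.6, 24.2 and 38.4 CPM, then 19.6, 21.3, 35.2, 23.4 and 34.6 CPM, and in CD105+ cells 2.23, 2.52, 6.52, 1.08 and 0.222 CPM. No CD105+ library reached the lowest CD200+ library in Hoxa10, and the 0.222 CPM of library 14 are 3 counts.

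In the HoxC cluster the genes of the trunk and the hindlimb, Hoxc8 to Hoxc10, had the most counts over all libraries. Hoxc8, a gene of the thoracic vertebrae, had 17.4, 5.98, 20.0 and 20.8 CPM in NI CD200+ cells, 8.90, 1.22, 10.8, 1.23 and 6.06 CPM in AIA CD200+ cells, and 0, 2.16, 0.767, 0 and 1.11 CPM in CD105+ cells. Hoxc9 had 25.2, 29.5, 34.8 and 12.3 CPM in NI cells, 0, 27.4, 32.3, 31.7 and 14.4 CPM in AIA CD200+ cells, and 0, 1.68, 0.287, 4.28 and 2.44 CPM in CD105+ cells. Library 5 is the single CD200+ library without Hoxc9. Hoxc10, which is used in the hindlimb and the lumbar region, had 21.2, 14.8, 14.4 and 10.2 CPM, then 23.1, 11.3, 20.1, 21.4 and 29.2 CPM, and in CD105+ cells 2.23, 1.86, 1.72, 1.88 and 2.07 CPM. The CD105+ libraries were close to each other in Hoxc10 and all below the lowest CD200+ library.

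The other HoxC members had fewer counts over all libraries, though Hoxc6 was read in each CD200+ library. Hoxc4 had 1.10, 0, 10.3 and 5.12 CPM in NI CD200+ cells, 4.68 and 6.62 CPM in AIA libraries 7 and 8 with 0 in the others, and 1.20 and 1.08 CPM in CD105+ libraries 11 and 13. Hoxc5 had 0.232, 9.16, 1.46 and 0 CPM, then 9.30, 17.1, 5.06, 6.62 and 1.64 CPM, and no count in any CD105+ library. Its NI level rests on library 2. Hoxc6, expressed in the forelimb and thorax of the embryo, had 5.29, 18.7, 6.77 and 6.69 CPM, then 0.809, 2.13, 5.66, 5.19 and 9.91 CPM, and 1.80 and 2.51 CPM in CD105+ libraries 11 and 13. Hoxc11, a hindlimb gene, had 7.32, 2.80, 3.23 and 25.3 CPM in NI cells, 10.3 and 13.7 CPM in AIA libraries 7 and 8, and 2.94 CPM in CD105+ library 11. In Hoxc4 and Hoxc11 the groups overlapped in all comparisons.

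HoxB and HoxD gave 3 of the 15. Hoxb2, a hindbrain gene, had 5.35 and 5.19 CPM in NI libraries 1 and 3, 4.85 and 0.0631 CPM in AIA CD200+ libraries 8 and 9, and 0.480, 4.50 and 1.55 CPM in CD105+ libraries 11, 12 and 14. It was the one tested member whose CD105+ mean, 1.31 CPM, was above that of AIA CD200+ cells, 0.982 CPM. Hoxd8 had 12.1, 7.03 and 0.465 CPM in NI libraries 1, 3 and 4, 12.4, 5.74 and 21.3 CPM in AIA libraries 7, 8 and 9, and 6.00, 2.68 and 0.222 CPM in CD105+ libraries 11, 12 and 14. Hoxd9, which acts with Hoxa9 in the limb, was at 0 in NI cells, with 3.35 and 4.29 CPM in AIA libraries 6 and 9 and 0.780 and 1.53 CPM in CD105+ libraries 11 and 12. In these 3 genes the groups overlapped in every comparison.

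A further 12 members had counts but did not pass the filter. Hoxb3 was read in NI library 1 alone (109 counts) and Hoxc12 in NI library 2 alone (15). Hoxa3 had 6, 80 and 121 counts in AIA CD200+ libraries 5, 7 and 9, and Hoxa4 had 136 in NI library 3 and 170 in AIA library 9. Hoxa11 had 78 counts in library 1 and 21 in library 7, and Hoxa13, the gene of the digits and the genital tract, had 59 in library 4 and 73 in library 7. These single appearances lie in CD200+ libraries of both conditions. Hoxb4, a regulator of blood stem cells, had 26, 44 and 2 counts in NI libraries 1, 3 and 4, 3 in AIA library 7 and 7 in CD105+ library 11. Hoxd10 had 31 counts in NI library 3, 35 in AIA library 6 and 4 in CD105+ library 14, and Hoxd4 had 24 in library 1 and 28 in library 9. Hoxa6 and Hoxb5 did not exceed 4 counts in any library. Of these 12, only Hoxb4 and Hoxd10 had any count in CD105+ cells.

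The 12 members at 0 in all 14 libraries were Hoxb1, Hoxb6, Hoxb7, Hoxb8, Hoxb9, Hoxb13, Hoxc13, Hoxd1, Hoxd3, Hoxd11, Hoxd12 and Hoxd13. Those of HoxB include Hoxb6 to Hoxb9, the mid-cluster neighbours of the thorax, and those of HoxD include Hoxd11 to Hoxd13, the genes of the forearm, lower leg and digits. Hoxd3 and Hoxd4 share annotated exons with each other (62.3% and 52.3% of their exon bases lie in a gene on the same strand), so reads there could not be assigned to either, and the 0 of Hoxd3 is uncertain. The other 11 share at most 10.8% of their exon bases. Over a whole group, 3 counts are 0.0540 CPM in NI CD200+, 0.0577 CPM in AIA CD200+ and 0.0479 CPM in AIA CD105+ cells. This is the level that a group without a count allows when only counting error is considered.

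CD105+ and CD200+ cells of arthritic mice were compared to see how the sorted populations differ. Hoxc10, Hoxa10, Hoxa7 and Hoxc5 were called lower, and no member was called higher. These 4 lie in 2 clusters: Hoxa7 and Hoxa10 lie on chr6 at 52214491 to 52221854 and 52231197 to 52240854, and Hoxc10 and Hoxc5 on chr15 at 102966796 to 102971893 and 102967443 to 103017429 (GRCm38). Hoxc10 was 10.8-fold lower, from 21.0 to 1.95 CPM (log2 change -3.42, SE 0.69, edgeR adjusted p = 0.00719), and lower in 5 of 5 CD105+ libraries than in any AIA CD200+ library. Hoxa10 was 10.7-fold lower, from 26.8 to 2.51 CPM (-3.41, SE 0.82, adjusted p = 0.0167), again without overlap. Hoxa7 fell from 13.2 CPM in AIA CD200+ cells to no count (edgeR adjusted p = 0.0199), and Hoxc5 from 7.94 CPM to no count (0.0209). Against the floor of 3 counts over the CD105+ group these are falls of at least 275-fold and 166-fold. That floor covers counting error only and not zeros from spread between samples, so the true folds may be smaller. Hoxa7 overlapped between the groups through its zeros in libraries 5 and 6, and Hoxc5 did not. Hoxc5 and Hoxc10 share 5.37% and 8.70% of their exon bases, and 20.4% of those of Hoxa7 lie opposite the antisense gene Hoxaas3, whose reads cannot be told apart without strand.

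So 4 of 15 tested members were called lower, where 6.48% of all genes tested were called lower and 4.79% higher. The change was below 0 in 14 of 15, against 51.2% of all genes, and its median was -2.99 against -0.05 over all genes tested, the same with Hoxa7 and Hoxc5 at their bounds. In 5 members, Hoxa5, Hoxa9, Hoxa10, Hoxc5 and Hoxc10, every CD105+ library lay below every AIA CD200+ library, where 6.33% of all genes were lower and 10.4% higher in this way. At an unadjusted p under 0.05 there were 6 members and 26.8% of all genes. Among those not called, Hoxa5 had a change of -4.82 (adjusted p = 0.131), Hoxc9 of -3.58 (0.101), Hoxc8 of -2.77 (0.203) and Hoxa9 of -2.30 (0.266). Hoxa2, Hoxc4, Hoxc6, Hoxc11, Hoxd8 and Hoxd9 had changes from -3.50 to -1.68 with adjusted p from 0.350 to 0.670, and Hoxb2 had 0.38 (0.940). DESeq2 called 7 members lower (13.1% of all genes) and limma voom 8 (16.7%). Library sizes from the spike-ins, which moved the median of all genes up by 1.23, left 0 called (1.03% of all genes): Hoxa10 then had a change of -2.78 (edgeR adjusted p = 0.260), Hoxc10 of -2.25 (0.388), and Hoxa7 and Hoxc5 adjusted p of 0.0517 and 0.0513. Each of the 4 was called with any 1 of the 10 libraries compared left out. Without library 5 Hoxc9 was called too (edgeR adjusted p = 0.0320), and without library 11 Hoxa5 (0.0215). Without the 3 libraries over 80% spike-ins Hoxc9 was called as well, which made 5. The share of all genes called with libraries left out is not given. These added calls are therefore not read as a result about Hox genes.

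**Figure D3:**
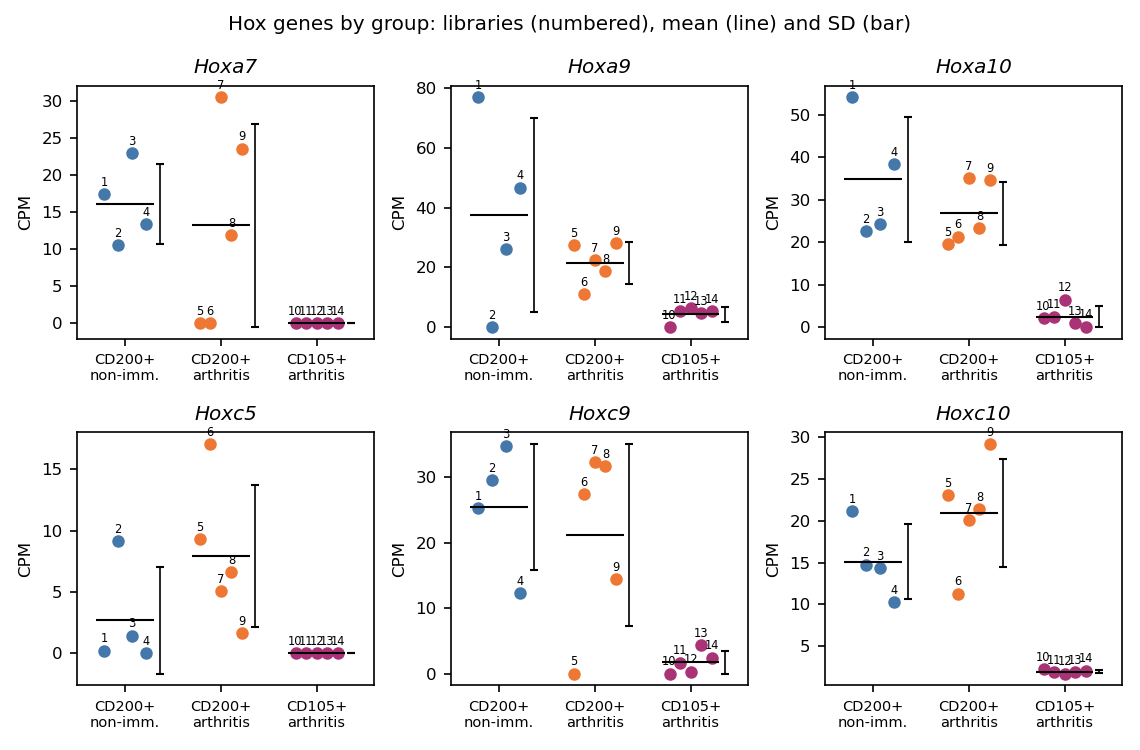
CPM of 6 Hox genes in each library (points, numbered) by group, with the mean (line) and SD (bar). Hoxa10 and Hoxc10 stay below 7 CPM in all 5 CD105+ libraries and above 10 CPM in all 9 CD200+ libraries, and Hoxa7 and Hoxc5 have no count in CD105+ cells.

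The AIA CD105+ cells were also set against NI CD200+ cells. This comparison shares its libraries with the others, so its values are given side by side and not as separate support. Hoxa10 was 13.9-fold lower (34.8 to 2.51 CPM, log2 change -3.79, SE 0.85, edgeR adjusted p = 0.0108) and Hoxc10 7.75-fold lower (15.1 to 1.95 CPM, -2.95, SE 0.69, adjusted p = 0.0137). Hoxa7 fell from 16.0 CPM to no count (edgeR adjusted p = 0.0171) and Hoxc5 from 2.71 CPM to no count (0.0306). Against the same floor, which covers counting error only, these are falls of at least 335-fold and 56.6-fold. These 4 of 15 were called lower, against 7.63% of all genes tested, and none was called higher, against 5.57%. The change was below 0 in 14 of 15 members and in 54.5% of all genes, with medians of -3.40 and -0.24. At an unadjusted p under 0.05 there were 8 members and 29.1% of all genes. Groups did not overlap in 6 members, Hoxa7, Hoxa10, Hoxc6, Hoxc8, Hoxc9 and Hoxc10, where 11.5% of all genes were lower and 12.5% higher in this way. Hoxc8 had a change of -4.28 (adjusted p = 0.0661), Hoxc9 of -3.85 (0.0821) and Hoxa9 of -3.10 (0.136), none of them called.

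Hoxc5 was the least stable of the called genes here. Its call was lost without library 2 (adjusted p = 0.0650), which holds most of its NI counts, and without libraries 3, 10, 13 and 14 (0.0513, 0.0502, 0.0583 and 0.0579), without a filter (0.0571) and without the 3 libraries over 80% spike-ins (0.0697). The other 3 were called in each of these. Without library 2 Hoxa9 was called (adjusted p = 0.0387), and without library 11 Hoxa5 was (0.0229). DESeq2 and limma voom each called 9 members (15.9% and 18.6% of all genes lower), and library sizes from the spike-ins, which moved the median of all genes up by 1.37, left 0 (0.739%).

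**Figure D4:**
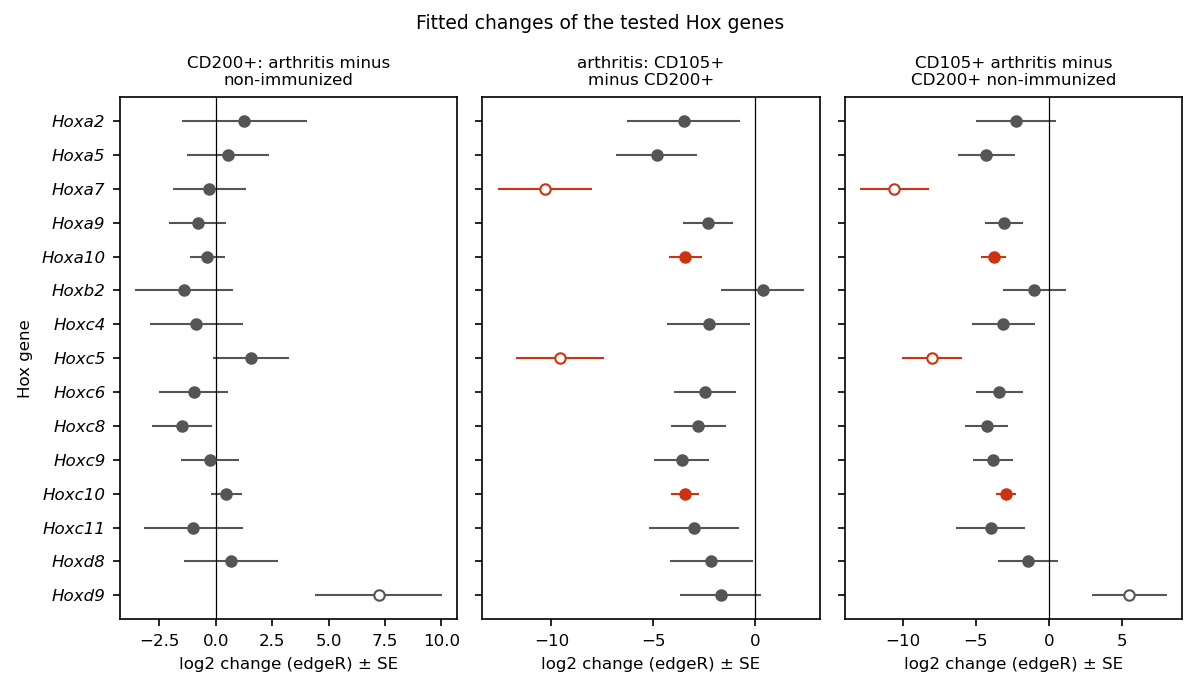
Fitted log2 change ± SE (x axis) of the 15 tested Hox genes (y axis) in the 3 comparisons; red points have an adjusted p under 0.05 and open points a group with no count, for which the fitted size is no estimate of the fold. Hoxa7, Hoxa10, Hoxc5 and Hoxc10 are red in both comparisons with CD105+ cells, and no point is red for arthritis within CD200+ cells.

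Arthritis was the question of the comparison within CD200+ cells. No member was called by edgeR, and 0.0% of all genes were, in either direction. The lowest edgeR adjusted p over all genes was 0.636. At an unadjusted p under 0.05 there was 1 member and 6.09% of all genes. It was Hoxd9, which had no count in NI cells (edgeR adjusted p = 0.675). DESeq2 and limma voom called 0 members too, and 1.2% and 0.00666% of all genes as lower. The change was below 0 in 9 members and above 0 in 6, against 54.2% of all genes below 0, and the median was -0.28 against -0.10 over all genes. Hoxa10 had 26.8 ± 7.50 CPM in AIA (SD, n = 5) and 34.8 ± 14.7 CPM in NI cells (n = 4), a change of -0.38 with SE 0.78. Hoxc10 had 21.0 and 15.1 CPM (0.47, SE 0.67), Hoxc8 5.64 and 16.0 CPM (-1.50, SE 1.33) and Hoxc5 7.94 and 2.71 CPM (1.55, SE 1.69). The SE of the 15 members ranged from 0.67 to 2.80 (log2), so changes of this size were not detectable. The groups overlapped in all 15 members, where 1.18% of all genes were lower and 1.11% higher without overlap.

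Markers of some other cell types moved with the difference between CD105+ and CD200+ libraries. Calls here compare AIA CD105+ with AIA CD200+ cells, where 6.48% of all genes tested were called lower and 4.79% higher. The summed level of 11 osteoblast lineage genes was 46820 to 132959 CPM in NI CD200+ and 25939 to 47020 CPM in AIA CD200+ libraries. In CD105+ libraries it was 123 to 1524 CPM, and 8 of the 11 osteoblast lineage genes were called lower. Runx2, the master regulator of the lineage, was at 0 in all 5 CD105+ libraries. Sums of 8 skeletal muscle and satellite cell genes were 591 to 2938, 981 to 2225 and 0.767 to 14.6 CPM, with 6 of 8 called lower and Pax7, Myf5, Myog and Ckm at 0 in CD105+ cells. Sums of 7 mural cell genes were 402 to 1167, 493 to 1701 and 3.79 to 281 CPM, with 2 called lower and Myh11 at 0. The 2 were Des and Notch3. Des is on the muscle list too and is among its 6 calls, so these 2 lists are not separate. In the other direction, 10 erythroid genes summed to 1174 to 10197, 4.25 to 10408 and 27412 to 248298 CPM, with 7 of 10 called higher in CD105+ cells and Gata1, Klf1, Epor and Slc4a1 at 0 in all AIA CD200+ libraries. Library 10 had the highest erythroid sum and, of all 14, the lowest osteoblast and Hox sums. The part of these cells in the lower Hox levels was not tested. Of the remaining marker lists, none had a member called in any comparison by edgeR with TMM factors and all 14 libraries. Sums of 5 synovial lining fibroblast genes were 2.34 to 360, 43.0 to 2069 and 81.4 to 5660 CPM, in the same group order. Those of 8 sublining fibroblast genes were 274 to 503, 127 to 1036 and 151 to 306 CPM. In both lists the CD105+ range overlapped the CD200+ ranges. All 5 tendon genes tested had a change below 0. With spike-in library sizes 7 of 11 osteoblast, 5 of 8 muscle and 0 of 7 mural genes were called lower against AIA CD200+ cells (1.03% of all genes). In that scaling, which moved the median of all genes up by 1.23, 5 of 10 erythroid genes and the macrophage gene Cd68 were called higher. The share of all genes called higher in it is not given, so these calls have no baseline here.

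**Figure D5:**
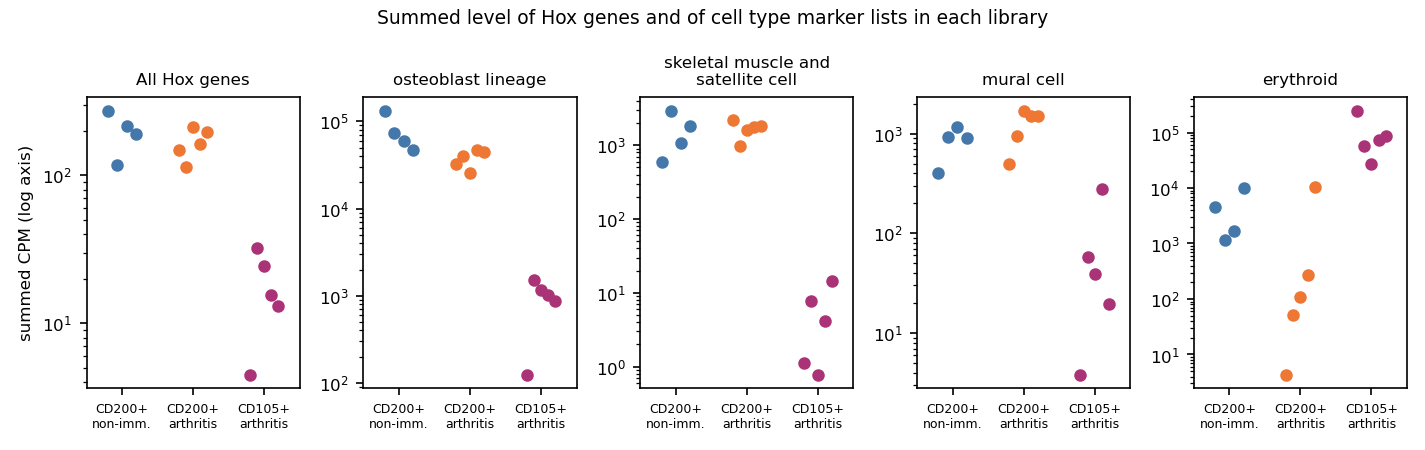
Summed CPM (log axis) of all Hox genes and of 4 cell type marker lists in each library, by group. The Hox, osteoblast, muscle and mural sums are lower in all 5 CD105+ libraries than in all 9 CD200+ libraries, and the erythroid sum is higher.

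The other genes of limb position were taken from lists. Of 36 limb position transcription factors, 21 were tested; 2 were called lower in AIA CD105+ against AIA CD200+ cells and none higher, with a median change of -2.31. This is near the 6.48% called lower over all genes. The called factors were En1, the factor of ventral limb identity (27.2 to 0.275 CPM, log2 change -6.51, edgeR adjusted p = 0.0158), and Irx5 (8.45 CPM to no count, adjusted p = 0.0316). The hindlimb factors were read in cells of both sorts. Pitx1 had 3.95, 3.18, 4.62 and 10.6 CPM in NI cells and 7.63 and 0.273 CPM in AIA CD200+ libraries 7 and 8, with 4.38, 1.71 and 2.73 CPM in CD105+ libraries 11, 13 and 14. Tbx4 had 15.2, 24.1, 5.70 and 2.38 CPM in NI cells, 26.3, 23.9 and 17.4 CPM in AIA CD200+ libraries 5, 7 and 9, and 3.60 and 0.383 CPM in CD105+ libraries 11 and 12. Tbx5, the forelimb counterpart of Tbx4, was at 0 in all 9 CD200+ libraries and had 0.660 and 1.03 CPM in CD105+ libraries 11 and 14. Neither Pitx1 (0.15, adjusted p = 0.975) nor Tbx4 (-4.05, adjusted p = 0.234) was called in CD105+ cells. Prrx1, a factor of limb mesenchyme, had 69.9 ± 34.2 CPM (SD, n = 5) in AIA CD200+ and 24.3 ± 21.0 CPM (n = 5) in CD105+ cells (-1.52, adjusted p = 0.249). Shox2 (-2.31, 0.444) and Tbx15 (-1.73, 0.582) were not called either, and Emx2 was read only in library 11, at 0.660 CPM.

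Of 24 tested limb patterning signals, 7 were called lower and 0 higher in CD105+ against AIA CD200+ cells, where 6.48% of all genes were called lower, with a median change of -4.08 and a change below 0 in 23 of 24. Bmp4 fell from 144 ± 83.0 to 0.356 ± 0.680 CPM (log2 change -9.12, SE 1.27, edgeR adjusted p = 0.000678). Bmp2 (-6.67, adjusted p = 0.0192), Gli2, an effector of hedgehog signals (-6.63, 0.0206), Fgfr2 (-5.72, 0.0392) and Grem1, a BMP antagonist (-6.38, 0.0445) were called as well, as was Epha4 (0.0235), which had no count in CD105+ cells. Hhip was the seventh. Bmp2, Bmp4 and Fgfr2 are known to act in bone cells as well, and Shh, the signal of the posterior limb bud, had no count in any library. Gdf5, the joint interzone factor, was read only in library 1, at 0.814 CPM.

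Among the TALE cofactors calls went both ways. Of 11 TALE genes 10 were tested, with a median change of -1.76 in CD105+ against AIA CD200+ cells. In this comparison 1 was called higher and 2 lower, against 4.79% and 6.48% of all genes. Pbx4 rose from no count in any CD200+ library to 12.5 CPM (adjusted p = 0.0409), while Tgif1 fell from 83.1 to 6.87 CPM (-3.59, adjusted p = 0.0465) and Pknox2 from 7.72 CPM to no count (0.0451). Meis1 (-3.04, 0.440) and Meis2 (-3.16, 0.389) were not called. Of 33 tested Polycomb and trithorax regulators none was called in any comparison by edgeR with TMM factors and all 14 libraries. Their median change was 0.21. With RLE factors 1 of the 33, Kmt2a, was called lower against NI CD200+ cells. Summed, they had 563 to 1118 CPM in AIA CD200+ and 629 to 1356 CPM in CD105+ libraries, so these ranges overlapped. Of the genes flanking the clusters 17 were tested: Cbx5 (1.57, adjusted p = 0.0141) and Copz1 (1.68, 0.0371), both beside HoxC, rose, and Copz2, beside HoxB, fell by 1.98 (0.00542). These are 2 of 17 called higher and 1 lower, against 4.79% and 6.48% of all genes, and the lower share is near that of all genes. Their median change was 0.52, and Evx1 and Evx2, homeobox genes at the ends of HoxA and HoxD, had no count in any library. With spike-in library sizes only Bmp4 and Pbx4 of the 5 lists stayed called in CD105+ against AIA CD200+ cells. In that scaling the median change was -1.20 for the limb transcription factors, -2.76 for the patterning signals, -0.51 for the TALE genes, 1.25 for the Polycomb and trithorax regulators and 1.74 for the flanking genes. Without the 3 libraries over 80% spike-ins Pbx4, Tgif1 and Copz1 were no longer called, while Pknox1, Tbx2, Epha3, Etv5, Smo, Nfe2l1 and the trithorax gene Kmt2a were called lower. Against NI CD200+ cells 5 of 34 Polycomb and trithorax regulators were then called, 2 lower and 3 higher (Ash2l, Ezh2, Kmt2a, Phc3 and Rad21). Kmt2a and the genes in these last 2 sentences that are not described above were named after their values were seen. The share of all genes called without the 3 libraries is not given. No count in that setting is therefore read as a result about these lists. In arthritis within CD200+ cells no gene of these 5 lists was called.

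Non-coding genes inside the cluster spans numbered 43, of which 21 had a count and 9 passed the filter. None was called in any comparison. Hoxa11os, antisense to Hoxa11, had 2.34, 9.49 and 4.98 CPM in AIA CD200+ libraries 7, 8 and 9 and 0.0600 CPM in CD105+ library 11 (log2 change -7.11, edgeR adjusted p = 0.05002, just above the threshold). Hotairm1, at the low-numbered end of HoxA, was read in 8 of 9 CD200+ libraries, at up to 6.04 CPM, and had 0.300 and 0.628 CPM in CD105+ libraries 11 and 13 (-3.95, adjusted p = 0.128). Hotair, in HoxC, had 69.2 CPM in AIA library 5 and at most 7.29 CPM elsewhere (-5.95, adjusted p = 0.212). The processed pseudogene Gm11539 in the HoxB span, among silent HoxB genes, had 6.27 to 25.6 CPM in all 14 libraries, with a change of 0.11. Its counts are uncertain, since reads of a processed pseudogene and of its source gene can be split between them. Hoxb3os, opposite 27.3% of the exon bases of Hoxb2 and 52.9% of those of Hoxb3, was read in 6 libraries at up to 4.94 CPM, so part of the Hoxb2 and Hoxb3 counts cannot be told apart from it.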

How the data were processed

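Per the labels' protocols, cells went from the sorter straight into lysis buffer with ERCC spike-ins added, and SMART-Seq v4 cDNA was turned into Nextera XT libraries. Tools in the submitters' processing notes are HISAT2, StringTie, cutadapt and edgeR (no versions), with GRCm38 and mm10 as builds. No strand setting is given in the sources used. The authors deposited whole-number counts per gene. A further deposited table repeats these counts and was not used.

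Symbols, exons and positions came from GENCODE M21 (47310 of 47729 gene IDs matched), promoters from RefSeq. The 92 spike-ins were left out of library sizes. edgeR 4.0.16 (filterByExpr, TMM, robust quasi-likelihood fit of all 14 libraries with 3 group means) gave two-sided tests, and SE is the absolute log2 change over the square root of F. The script was tested on simulated data. Alternatives were RLE factors, spike-in library sizes, no filter, 10 CPM in 4 libraries, only the 2 groups compared, DESeq2 1.42.0, limma voom 3.58.1, no robust shrinkage and leaving out each library. Leaving out the libraries over 80% spike-ins was added after seeing the data. The naming rule takes all members and, of the lists, up to 6 genes with the smallest p and 11 preset genes. Values of a few of these genes are not reported here. The members, lists and rules were chosen with earlier results of these data known.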

Additional observations from a re-analysis of the deposited data

Results flagged for a closer look

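Each of the 15 tested Hox genes was examined in each of the 3 groups, leaving out 3 cases at 0 throughout. In the remaining 42 cases 9 libraries lay far from the rest of their group. The nominal rate of the rule, about 5% of cases, was not computed for values that are mostly 0 or high. No excess over chance is therefore read from the 9. In 4 of the 9 a single library had counts of a gene whose nearest value was 0. Hoxa2 had 11.4 CPM in NI CD200+ library 3 (nearest 0), 28.1 CPM in AIA CD200+ library 5 (nearest 6.34) and 2.94 CPM in CD105+ library 11 (nearest 0). Library 11 also stood alone in Hoxa5, at 1.98 CPM, and in Hoxc11, at 2.94 CPM, with 0 in the other 4 CD105+ libraries. It had 14 detected members, the most of any CD105+ library, and a macrophage marker sum of 5796 CPM, against at most 16.8 CPM in the other CD105+ libraries. Hoxb2 had 4.85 CPM in AIA CD200+ library 8 (nearest 0.0631). In NI CD200+ library 2, which is over 80% spike-ins, Hoxc5 had 9.16 CPM (nearest 1.46) and Hoxc6 18.7 CPM (nearest 6.77). Hoxa9 was the one low value, at 0 in CD105+ library 10 (nearest 4.68).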

How the results depend on the processing

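The calls of Hoxa7, Hoxa10, Hoxc5 and Hoxc10 in the comparisons with CD105+ cells rest on the choice of test and scaling. Against AIA CD200+ cells the 4 called members became 0 with spike-in library sizes, 7 with DESeq2 and 8 with limma voom, and 4 to 5 when single libraries were left out. Against NI CD200+ cells the 4 became 0, 9 and 9, and 3 to 5. The cause was not tested. For fits with libraries left out the share of all genes called is not given. RLE factors and no robust shrinkage kept 4 in both, and the strict filter and the fit of 2 groups gave 3, since Hoxc5, or Hoxa7 for AIA with 2 groups, did not pass their filters. In arthritis within CD200+ cells no alternative called a member. Directions there were not stable. With spike-in library sizes Hoxa2 turned to -0.14, Hoxa5 to -0.52, Hoxa7 to 0.31, Hoxc6 to 0.0097 and Hoxc9 to 0.0023. With limma voom Hoxa5 turned to -0.12. Without the 3 libraries over 80% spike-ins Hoxa2 was -0.83, Hoxa5 -0.67, Hoxa7 0.29, Hoxc6 0.14 and Hoxc9 0.12. With single libraries left out Hoxa5 ranged from -0.14 to 1.07, Hoxa7 from -0.85 to 0.039, Hoxc4 from -1.78 to 0.13, Hoxc9 from -0.48 to 0.057, Hoxc11 from -1.90 to 0.12 and Hoxd8 from -0.11 to 1.66. Against AIA CD200+ cells Hoxb2 ranged from -0.95 to 5.34 in this way, with -0.27 without the 3 libraries, and against NI CD200+ cells Hoxa2 ranged from -2.64 to 5.84. No paired analysis was possible because the library numbers 1 to 14 are unique and no label links samples of different groups. Limits of depth are largest in libraries 6, 10, 5 and 2, where 3 counts equal 0.914, 0.669, 0.607 and 0.561 CPM, and a single 0 there does not show that a gene is unused.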
